A study of Mus musculus with 6 samples.

Results

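The aminoacyl-tRNA synthetase genes were followed in the prostate lobes of a wild-type mouse and of a mouse overexpressing MYC. They were taken by symbol from the deposited table of FPKM, which listed 36 of these genes among 24908 in all, with symbols in capitals (AARS for Aars, QARS for Qars, WARS for Wars), and they were split by compartment into 20 genes for cytosolic enzymes and 16 for mitochondrial enzymes. The mean over the 6 libraries was at least 1 FPKM for 35 of the 36, the exception being Pars2, the mitochondrial proline enzyme, whose mean was 0.354 FPKM and which was left out of the counts and medians. The anterior (AP), dorsolateral (DLP) and ventral (VP) prostate of 12-week-old male FVB mice were profiled by bulk RNA-seq of polyA RNA. The MYC libraries came from a Hi-MYC mouse, heterozygous for a human c-MYC transgene that the ARR2Pb promoter drives in prostatic epithelium, and the WT libraries came from a wild-type littermate. Both genotypes received a purified diet from weaning, and the lobes were dissociated to cell suspensions with enzymes before RNA was extracted. Each lobe and genotype was represented by 1 library from 1 mouse, so no spread between animals could be had, no test was run and no p-value is given. A difference is given as the log2 ratio of FPKM + 1, and a gene is counted as 2-fold higher or lower from a log2 ratio of 1 on that scale. Higher or lower without a fold compares the values of 2 libraries. The 95% intervals are of the read ratio without the added 1 FPKM, so they need not be centred on the ratio given. They cover the counting error of the estimated reads alone.

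Aminoacyl-tRNA synthetases join each amino acid to its tRNA and so supply the ribosome with charged tRNA. Most amino acids are served by separate nuclear genes for the cytosolic and the mitochondrial enzyme, the latter commonly marked by a 2 at the end of its symbol. Gars and Kars encode both forms, Eprs carries the glutamate and proline activities in a single chain, and Farsa and Farsb encode the subunits of the cytosolic phenylalanine enzyme. Several cytosolic enzymes are held together in a multi-synthetase complex by the scaffold proteins Aimp1, Aimp2 and Eef1e1. When amino acids run short or the endoplasmic reticulum is stressed, the transcription factor ATF4 raises many of the cytosolic synthetase genes together with transporters and enzymes of amino acid synthesis. MYC, for its part, is known for raising genes of ribosome production and translation.

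The estimated depth was 25.5 to 50.2 M reads per library. At that depth the 35 genes stood on 49 to 9946 estimated reads in a library, with a median of 985. The Myc gene itself was at 230.0, 200.6 and 226.4 FPKM in WT AP, DLP and VP and at 230.9, 586.1 and 1696 FPKM in the corresponding MYC libraries. It was thus higher in MYC DLP and MYC VP than in WT and level in AP, and how reads of the human transgene were assigned to this row is not given in the sources used here. The luminal keratins Krt8 and Krt18 were present in every library. They summed to 948.6, 971.5 and 2903 FPKM in WT AP, DLP and VP and to 835.4, 1142 and 2415 FPKM in MYC. The 3 endothelial markers were lowest in the VP, with sums of 103.4, 76.0 and 15.1 FPKM in WT and 108.6, 86.1 and 17.2 FPKM in MYC. Other cell types moved with genotype. The 6 hematopoietic markers summed to 570.0, 266.6 and 135.6 FPKM in WT AP, DLP and VP and to 388.2, 1076 and 366.8 FPKM in MYC. The 5 smooth muscle markers had lower values in MYC DLP and MYC VP and higher ones in MYC AP. The 5 fibroblast markers summed to 1172, 1262 and 634.3 FPKM in WT AP, DLP and VP and to 1252, 604.5 and 185.1 FPKM in MYC. Most of each sum was Dcn, at 1060, 1155 and 582.7 FPKM in WT and 999.3, 453.9 and 156.1 FPKM in MYC. By marker, 4 of 5 were higher in MYC AP, 2 of 5 in MYC DLP and 1 of 5 in MYC VP. Col1a1 and Col1a2 were higher in MYC AP, by 2.04 and 1.41 on the log2 scale, and in MYC DLP, by 1.98 and 0.78. The 4 basal markers had higher values in MYC DLP (4 of 4) and lower ones in MYC VP (4 of 4). In MYC AP 2 of 4 were higher, Krt5 by only 0.003 on the log2 scale, and the 4 summed to 859.3 FPKM against 1337 FPKM in WT AP. The MYC AP library also held seminal vesicle transcripts at a summed 521.9 FPKM over 6 genes, against 0.0966 FPKM in WT AP, with Svs4 at 292.5 and Svs5 at 212.0 FPKM. The part of these markers in the results below was not tested, and in bulk RNA fewer cells of a type cannot be told apart from less RNA per cell.

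Cytosolic synthetase genes were expressed several-fold above the mitochondrial ones in each library. FPKM are per length, so levels of different genes can be set side by side. The median cytosolic gene was at 28.2, 28.5 and 25.0 FPKM in WT AP, DLP and VP and at 21.9, 23.7 and 29.9 FPKM in MYC. The median mitochondrial gene was at 3.65, 4.76 and 4.28 FPKM in WT and at 4.05, 6.13 and 5.92 FPKM in MYC. The cytosolic median was therefore 7.72, 6.0 and 5.86 times the mitochondrial median in the WT lobes, and 5.40, 3.87 and 5.04 times in the MYC lobes. In each lobe the ratio was lower in MYC than in WT. For the 15 amino acids with both a cytosolic and a mitochondrial gene, the cytosolic gene was higher in 15 of 15 pairs in each of the 6 libraries, and the ratio ran from 1.41 for isoleucine in MYC DLP to 57.4 for asparagine in WT AP.

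The highest cytosolic gene by mean level was Nars, the asparagine enzyme (chromosome 18, 64499655 to 64516515, assembly GRCm38 as are all positions here). It was at 84.7, 86.6 and 80.6 FPKM in WT AP, DLP and VP and at 59.3, 52.2 and 59.8 FPKM in MYC, lower in each MYC lobe. The lowest was Vars, the valine enzyme, with a mean of 11.4 FPKM. Among the mitochondrial genes Iars2, the isoleucine enzyme, was highest at a mean of 9.99 FPKM. Pars2 was lowest, at 0.402, 0.408 and 0.249 FPKM in WT and 0.463, 0.398 and 0.204 FPKM in MYC, on 12 to 32 estimated reads. The lowest that passed the filter was Ears2, the glutamate enzyme, at a mean of 1.54 FPKM.

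**Figure D1:**
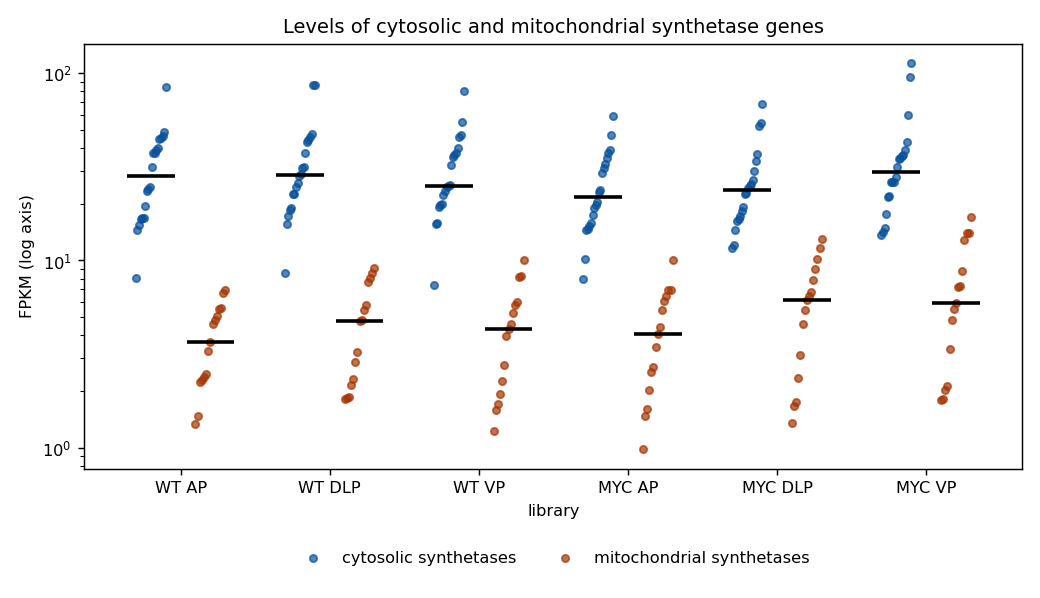
FPKM on a log axis of the 20 cytosolic and the 15 mitochondrial synthetase genes that passed the filter, in each of the 6 libraries (1 point per gene, bar at the median). The cytosolic medians lie between 21.9 and 29.9 FPKM and the mitochondrial ones between 3.65 and 6.13 FPKM.

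Summed over the 20 genes as deposited, cytosolic synthetase expression was 635.3 FPKM in WT AP and 514.0 FPKM in MYC AP, and 686.3 against 550.6 FPKM in the DLP. In the VP MYC had the larger sum as deposited, 736.9 against 628.5 FPKM. The FPKM summed over all genes was also larger in MYC VP than in WT VP, so the larger cytosolic sum depends on the scaling. With equal sums of FPKM the median log2 ratio of the 20 cytosolic genes in the VP was -0.046, against 0.18 as deposited. Higher cytosolic synthetase expression in MYC VP is therefore not drawn from these sums. The sum over the 15 mitochondrial genes was higher in MYC in each lobe, at 58.3 against 65.0 FPKM in the AP, 70.2 against 91.3 FPKM in the DLP and 67.7 against 108.6 FPKM in the VP.

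On the scale as deposited, the lobes of the WT mouse differed little in their synthetase genes. The highest and lowest lobe lay within 1.5-fold for 18 of 20 cytosolic and 11 of 15 mitochondrial genes, beside 45.1% of the 12361 genes compared. In no pair of WT lobes did a member differ by 2-fold. Among all genes 7.89% were 2-fold higher and 10.3% were 2-fold lower in VP than in AP. For VP against DLP those shares were 2.63% and 6.29%, and for DLP against AP they were 3.85% and 1.31%. These statements depend on the scaling. Krt8 and Krt18 had a median log2 ratio of 1.62 for WT VP against AP and 1.57 for WT VP against DLP. With these keratins set equal the VP values of all members would be lower, and the statement on 2-fold would not hold. The members outside the 1.5-fold range were chosen for description after their values were seen.

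Wars, the tryptophan enzyme, which interferon gamma is known to induce, was at 45.4 FPKM in WT AP, 87.1 in WT DLP and 46.7 in WT VP. The DLP stood above both other lobes, by 0.93 on the log2 scale over AP (95% counting interval 0.87 to 1.02). Gars, whose gene gives the cytosolic and the mitochondrial glycine enzyme, was at 48.8, 42.9 and 24.6 FPKM in the same order. Here VP was the low lobe, with a log2 ratio of -0.96 against AP (-1.07 to -0.91). Rars2, the mitochondrial arginine enzyme, ran the other way, at 5.51, 8.05 and 10.03 FPKM, and Wars2, the mitochondrial tryptophan enzyme, was at 2.30, 1.81 and 1.22 FPKM. The remaining members past 1.5-fold were Tars2, lowest in AP at 5.57 FPKM, and Nars2, lowest in AP at 1.48 FPKM. The lobe in which a gene was highest was VP for 9, DLP for 6 and AP for 5 of the 20 cytosolic genes, beside 32.1%, 35.3% and 32.6% of all genes. For the 15 mitochondrial genes these counts were 5, 8 and 2. They depended on the scaling of the libraries, the count of cytosolic genes highest in VP running from 0 when Krt8 and Krt18 were set equal to 15 under a trimmed mean, so no lobe order is drawn from them.

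**Figure D2:**
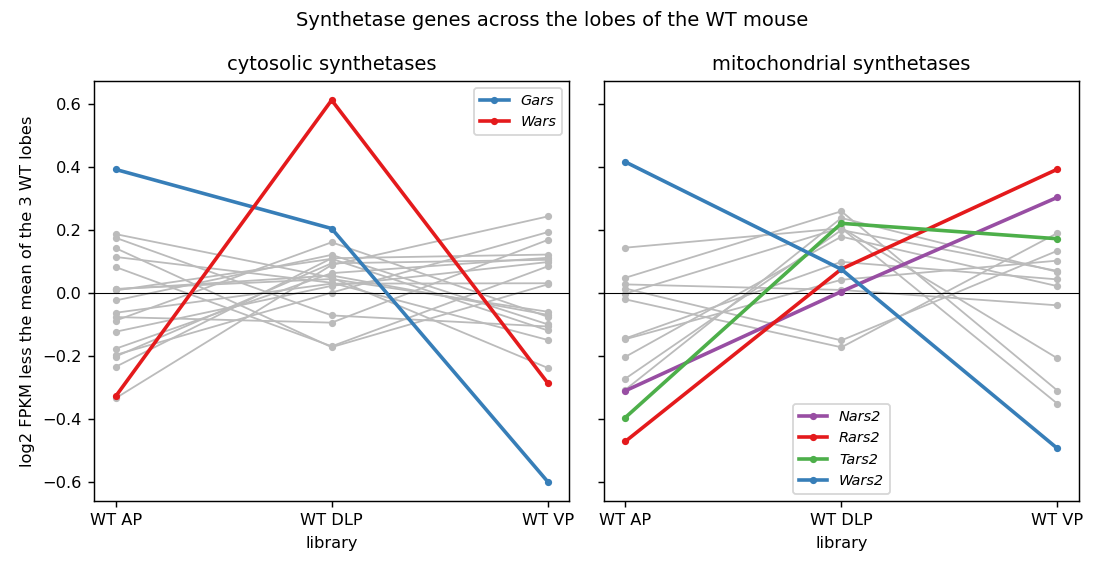
log2 FPKM of each synthetase gene in the 3 WT lobes, less the gene's own mean over them, for cytosolic (left) and mitochondrial genes (right), with the members past 1.5-fold in colour. Wars stands out in the DLP at 87.1 FPKM and Gars in the VP at 24.6 FPKM.

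MYC overexpression went with differences in both directions, most of them in the VP. There 5 of 35 members were at least 2-fold higher in MYC, beside 6.88% of all genes, and 2 were 2-fold lower, beside 5.95%. With equal sums of FPKM the count of higher members was 3, Kars (0.83) and Lars2 (0.93) falling short, and with Krt8 and Krt18 set equal the count of lower members was 0, with Aars at -0.73 and Wars at -0.78. In the DLP 0 members were 2-fold higher, beside 6.46%, and 2 were lower, beside 3.39%. In the AP no member reached 2-fold in either direction, beside 2.05% and 0.599% of all genes. At a 1.5-fold threshold 10 members were higher and 4 lower in the VP, 4 and 6 in the DLP and 0 and 3 in the AP, beside backgrounds of 16.7% and 14.9%, 13.4% and 9.44%, and 7.53% and 3.13% in that order. In all, 8 members reached 2-fold in some lobe, 6 cytosolic and 2 mitochondrial, beside 18.7% of all genes. Next to the VP threshold stood Lars2 at 1.14 and Kars at 1.06 just inside, and Tars2 at 0.96 and Farsa at 0.95 just outside.

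The cytosolic genes differed by list. The lists were chosen with earlier results of these data known, so the division is a description and was not tested. A list of 12 cytosolic synthetase genes known as responsive to ATF4 had medians of -0.49, -0.59 and -0.30 on the log2 scale in AP, DLP and VP. The other 8 cytosolic genes had medians of 0.04, 0.21 and 0.82. The 15 mitochondrial genes had medians of 0.08, 0.28 and 0.35, and all genes compared had 0.13, 0.03 and 0.04. In the AP the medians of the other cytosolic and of the mitochondrial genes thus also lay below that of all genes. The ATF4 list stayed below 0 under each of the scalings tried, at -0.64 to -0.34 in the AP, -0.82 to -0.59 in the DLP and -0.56 to -0.05 in the VP. The other cytosolic genes kept a median above 0 in the VP (0.56 to 1.03), but crossed 0 in the AP (-0.11 to 0.20) and the DLP (-0.02 to 0.21). The mitochondrial median stayed above 0 in the DLP (0.08 to 0.28) and the VP (0.18 to 0.53) and crossed it in the AP (-0.02 to 0.21). Over all 20 cytosolic genes together the medians were -0.25, -0.19 and 0.18, the last of which ran from -0.08 to 0.43 with the scaling.

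**Figure D3:**
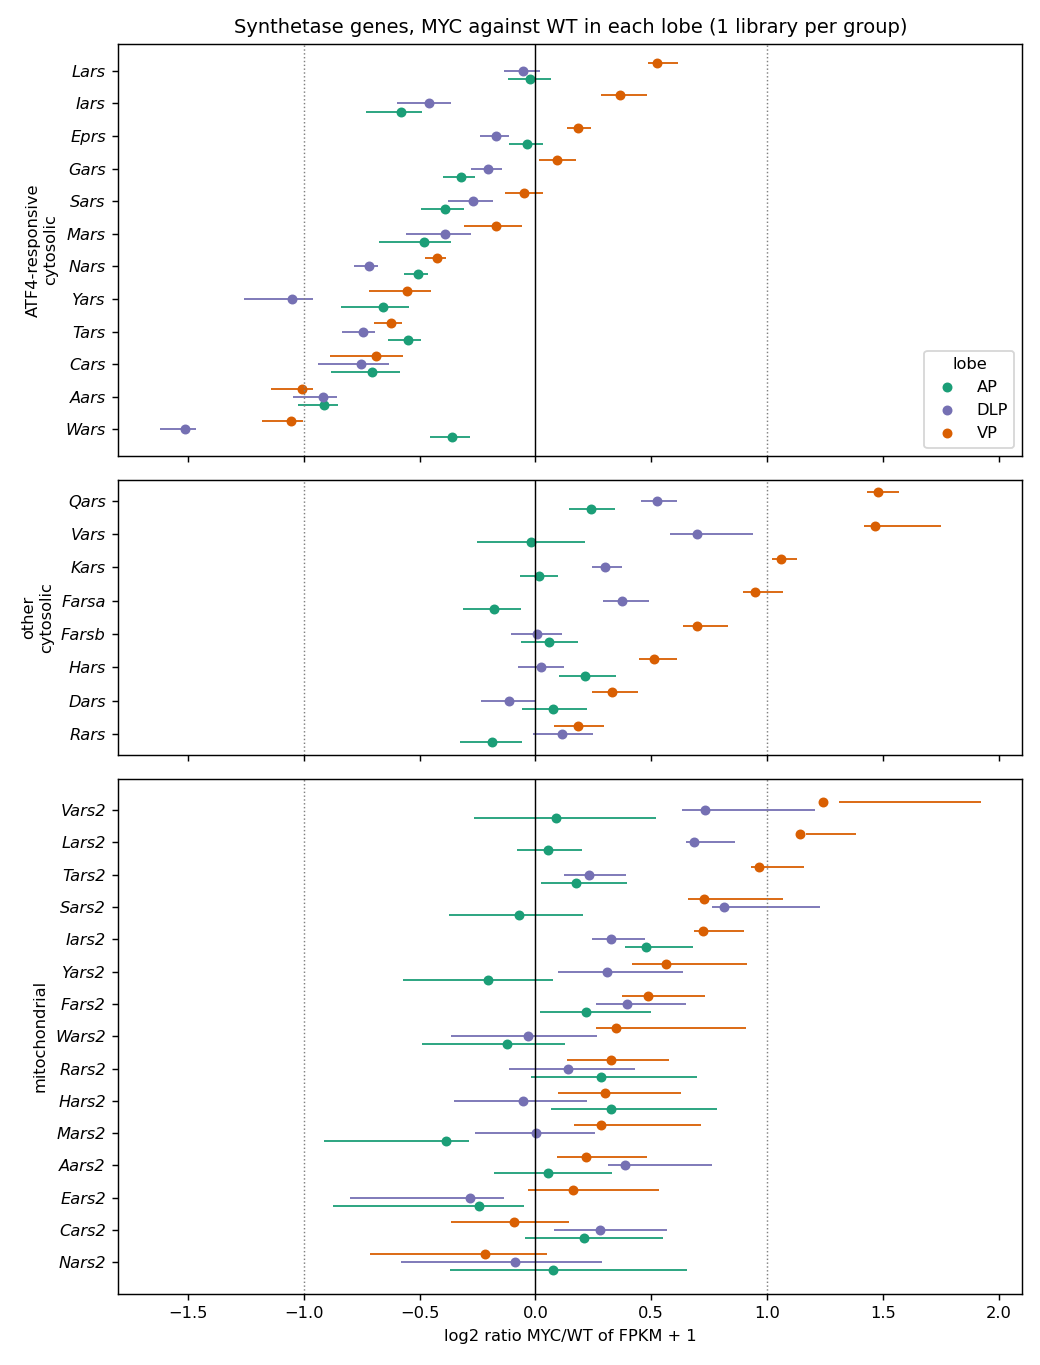
log2 ratio of MYC against WT for each of the 35 synthetase genes, in AP, DLP and VP (points), with the dotted lines at 2-fold. The bars are 95% counting intervals of the read ratio without the added 1 FPKM, so for low genes a bar can lie farther from 0 than its point. The ATF4-responsive genes lie mostly left of 0, the other cytosolic genes right of 0 in the VP, from 0.18 to 1.48.

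Of the 12 ATF4-responsive genes, 12 were below 0 in the AP, 12 in the DLP and 8 in the VP, beside 33.3%, 46.2% and 46.4% of all genes. A set of 8 lay below 0 in all 3 lobes, beside 13.9% of all genes. Over the scalings 0 to 2 of the 12 were above 0 in the AP, 0 in the DLP and 2 to 6 in the VP. The set of 8 therefore also depends on the scaling. Aars, the alanine enzyme (chromosome 8, 111027778 to 111055569), was at 44.5, 37.5 and 36.6 FPKM in WT AP, DLP and VP and at 23.2, 19.4 and 17.7 FPKM in MYC. The MYC library was the lower in each lobe by nearly the same ratio, -0.91, -0.92 and -1.01 on the log2 scale, with a counting interval of -1.14 to -0.96 in the VP. Cars, the cysteine enzyme, moved alike at ratios of -0.71, -0.75 and -0.69, from 31.7, 28.8 and 23.6 FPKM in WT to 19.1, 16.7 and 14.3 FPKM. Nars, given above, had ratios of -0.51, -0.72 and -0.42.

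Wars (chromosome 12, 108860030 to 108894175) was at 35.1, 29.9 and 21.9 FPKM in MYC AP, DLP and VP. Set against its WT levels these were ratios of -0.36, -1.51 (-1.62 to -1.47) and -1.06 (-1.18 to -1.0), so the DLP library, highest in WT, had the largest fall of any member in any lobe. Yars, the tyrosine enzyme (chromosome 4, 129189734 to 129219240), was at 23.6, 26.0 and 22.3 FPKM in WT and at 14.6, 12.1 and 14.9 FPKM in MYC. It was lower in each lobe, by ratios of -0.66, -1.05 (-1.26 to -0.96) and -0.55. The remaining genes of this list, Eprs, Gars, Iars, Lars, Mars, Sars and Tars, lay between -0.58 and -0.03 in the AP, -0.74 and -0.06 in the DLP and -0.62 and 0.53 in the VP. The 4 above 0 in the VP were Lars at 0.53, Iars at 0.37, Eprs at 0.18 and Gars at 0.09, a count that ran from 2 to 6 over the scalings.

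Promoter windows from 250 bases before to 50 after an annotated start (RefSeq, GRCm38.p6) were on hand for 27 of the 36 members. They were searched on both strands for the amino acid response element TGATGNAA, the site type bound by ATF4 with C/EBP partners, and for the E-box CACGTG, the site type bound by MYC with MAX. Among genes with a window, the response element was found in 5 of 8 ATF4-responsive, 0 of 5 other cytosolic and 0 of 14 mitochondrial genes. It was in 3.97% of all 32851 windows of this length. The counts are of genes with a match in any window and the share is of windows, so the units differ. The list was drawn up from knowledge of this response, so the matches are no independent support for it. A match is a description of letters and not a shown binding site. The match nearest to the start of each gene is printed because these genes moved together in the AP and DLP, 5′ to 3′ on the strand of the gene, with the element in capitals; TTGCATCA and TTTCATCA are the element read on the opposite strand. The stretch shown for Aars is chr8:111033840-111033869, Gars is chr6:55037960-55037989, Iars chr13:49682126-49682155, Tars chr15:11399655-11399684 and Yars chr4:129189895-129189924. The element begins at 10 in Aars, -30 in Gars, 8 in Iars, -15 in Tars and 4 in Yars, counted along the gene from the start that the window was cut at. That start is the outer end of the gene given by the annotation for Gars, Iars and Tars, but for Aars (111033842) and Yars (129189903) it lies inside the gene's span, so their windows belong to an inner start.
Aars: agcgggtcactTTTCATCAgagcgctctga
Gars: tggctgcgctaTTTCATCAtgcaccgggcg
Iars: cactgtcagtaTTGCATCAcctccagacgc
Tars: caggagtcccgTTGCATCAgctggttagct
Yars: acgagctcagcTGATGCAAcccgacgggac

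In the VP these 5 genes had log2 ratios of -1.01 (Aars), 0.09 (Gars), 0.37 (Iars), -0.62 (Tars) and -0.55 (Yars), so genes with the element lay on both sides of 0 there. In the AP and DLP the 5 ratios were all below 0. The E-box was found in 3 of 8 ATF4-responsive, 1 of 5 other cytosolic and 1 of 14 mitochondrial genes with a window. As a share of all windows, not of genes, it was in 7.15%. Aars, Iars and Tars held both elements. The E-box of Aars, before the same inner start, lies at chr8:111033685-111033714 and that of Farsb, for the beta subunit of the phenylalanine enzyme, at chr1:78488918-78488947, shown with the E-box in capitals because they stand for genes of opposite direction in the VP.
Aars, E-box: gtcaaccctgtCACGTGacactccatgtcc
Farsb, E-box: tagacaggcatCACGTGagacagcccaaga

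In the VP, Farsb was at 15.8 FPKM in the WT library and 26.3 FPKM in the MYC library, which is 0.70 on the log2 scale, against 0.06 in the AP and 0.01 in the DLP.

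Of the 8 other cytosolic genes, 3 were 2-fold higher in MYC VP, beside 6.88% of all genes. Above 0 there were 8 of 8 (7 to 8 over the scalings), beside 53.2% of all genes. Qars, the glutamine enzyme (chromosome 9, 108508005 to 108515941), was at 39.7, 47.1 and 40.0 FPKM in WT AP, DLP and VP and at 47.0, 68.3 and 113 FPKM in MYC. The MYC library was the higher in each lobe and stood farthest from WT in the VP, at ratios of 0.24, 0.53 and 1.48 (1.43 to 1.57). Vars (chromosome 17, 35000907 to 35016329), whose product associates with the elongation factor eEF1, was at 8.03, 8.61 and 7.36 FPKM in WT and at 7.92, 14.6 and 22.1 FPKM in MYC. Its ratios were 0.70 in the DLP and 1.46 (1.42 to 1.75) in the VP, while that of the AP, -0.02, changed sign with the scaling. Kars, the lysine enzyme (chromosome 8, 111993439 to 112011354), was at 37.4, 44.1 and 45.6 FPKM in WT and at 37.7, 54.6 and 96.1 FPKM in MYC. Its ratio was 1.06 (1.02 to 1.13) in the VP and 0.30 in the DLP.

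Farsa, for the alpha subunit of the phenylalanine enzyme, had 19.7 FPKM in the WT and 38.9 FPKM in the MYC library of the VP, a ratio of 0.95, and stood at 0.37 in the DLP and -0.18 in the AP. Hars, the histidine enzyme, had ratios of 0.21, 0.02 and 0.51, of which the DLP value changed sign with the scaling, and Dars, the aspartate enzyme, had 0.08, -0.11 and 0.33, of which the AP value did. Hars and Hars2 overlap at their starts on chromosome 18, and whether the authors counted by strand is not given in the sources used here. Rars, the arginine enzyme, had the smallest VP ratio of these 8, 0.18. The log2 ratio was highest in the VP of the 3 lobes for 17 of 20 cytosolic genes and 10 of 15 mitochondrial genes, beside 34.4% of all genes. These counts depend on the scaling, which moves the lobes unequally. With equal sums of FPKM the median of all genes went from 0.04 to -0.15 in the VP but from 0.13 to 0.11 in the AP. Some genes were close between lobes, such as Cars at -0.69 in the VP and -0.71 in the AP.

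The enzymes of the multi-synthetase complex came from both lists. Qars, Kars, Dars and Rars belong to it, as do Eprs, Iars, Lars and Mars of the ATF4-responsive list. The 8 had median log2 ratios of -0.03 in the AP, -0.08 in the DLP and 0.35 in the VP, beside 0.13, 0.03 and 0.04 for all genes. In the VP 7 of 8 were above 0, beside 53.2% of all genes, the exception being Mars, the methionine enzyme, at -0.17. Of those above 0, Eprs and Rars stood nearest to it, both at 0.18.

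The mitochondrial genes were above 0 in 10 of 15 cases in the AP, 11 in the DLP and 13 in the VP, beside 66.4%, 53.5% and 53.2% of all genes. A set of 7 lay above 0 in all 3 lobes, beside 29.9% of all genes, and 0 lay below 0 in all 3. Vars2, the mitochondrial valine enzyme (chromosome 17, 35655634 to 35667639), was at 2.48, 2.87 and 1.93 FPKM in WT AP, DLP and VP and at 2.69, 5.41 and 5.92 FPKM in MYC. Both MYC DLP and MYC VP stood above the 3 WT libraries, with ratios of 0.73 and 1.24 and a counting interval of 1.31 to 1.92 in the VP for the ratio without the added 1 FPKM. Lars2, the leucine enzyme (chromosome 9, 123366927 to 123462675), was at 6.66, 7.70 and 5.78 FPKM in WT and at 6.95, 13.0 and 14.0 FPKM in MYC. It repeated that pattern at ratios of 0.69 and 1.14.

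Short of 2-fold, Tars2, the threonine enzyme, had 8.26 FPKM in the VP of the WT mouse and 17.1 FPKM in that of the MYC mouse (0.96). Sars2, the serine enzyme, had ratios of 0.81 in the DLP and 0.73 in the VP. Iars2 was higher in each MYC lobe, at 0.48, 0.33 and 0.72, the first being the highest AP ratio of any member. Yars2, the tyrosine enzyme, had 0.31 in the DLP and 0.56 in the VP but -0.20 in the AP.

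The lowest mitochondrial ratios were small. In the VP those of Nars2, the asparagine enzyme, and Cars2, the cysteine enzyme, were -0.22 and -0.09, the latter changing sign with the scaling. Ears2 stood at -0.24 in the AP and -0.28 in the DLP, and Mars2, the methionine enzyme, at -0.39 in the AP. Hars2, the histidine enzyme, had 0.33, -0.06 and 0.30, and Rars2 had 0.28, 0.14 and 0.33, the DLP value changing sign with the scaling. Aars2, Fars2 and Wars2, for alanine, phenylalanine and tryptophan, lay between -0.12 and 0.48 over the 3 lobes.

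Within an amino acid, the mitochondrial gene had the higher ratio of MYC to WT in 14 of 15 pairs in the AP, 13 in the DLP and 11 in the VP. The median difference, mitochondrial less cytosolic log2 ratio, was 0.40, 0.74 and 0.45. Most pairs had a cytosolic gene of the ATF4-responsive list, while Farsa, Hars, Rars and Vars are not on it. For these the differences were 0.40, 0.12, 0.47 and 0.11 in the AP and 0.02, -0.08, 0.03 and 0.03 in the DLP. In the VP they were -0.46, -0.21, 0.14 and -0.22. Qars and Kars stood outside the pairs. The widest gap was for threonine in the VP, 1.58, with Tars at -0.62 and Tars2 at 0.96. Tryptophan followed in the DLP at 1.48, with Wars at -1.51 and Wars2 at -0.03. Valine had the pair in which both genes were 2-fold higher in MYC VP, and phenylalanine in the VP the pair with the cytosolic gene farthest ahead, at -0.46. The difference of 2 genes within a library pair does not depend on the scaling, apart from the added 1 FPKM, which shrinks ratios of the lower, mitochondrial genes.

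**Figure D4:**
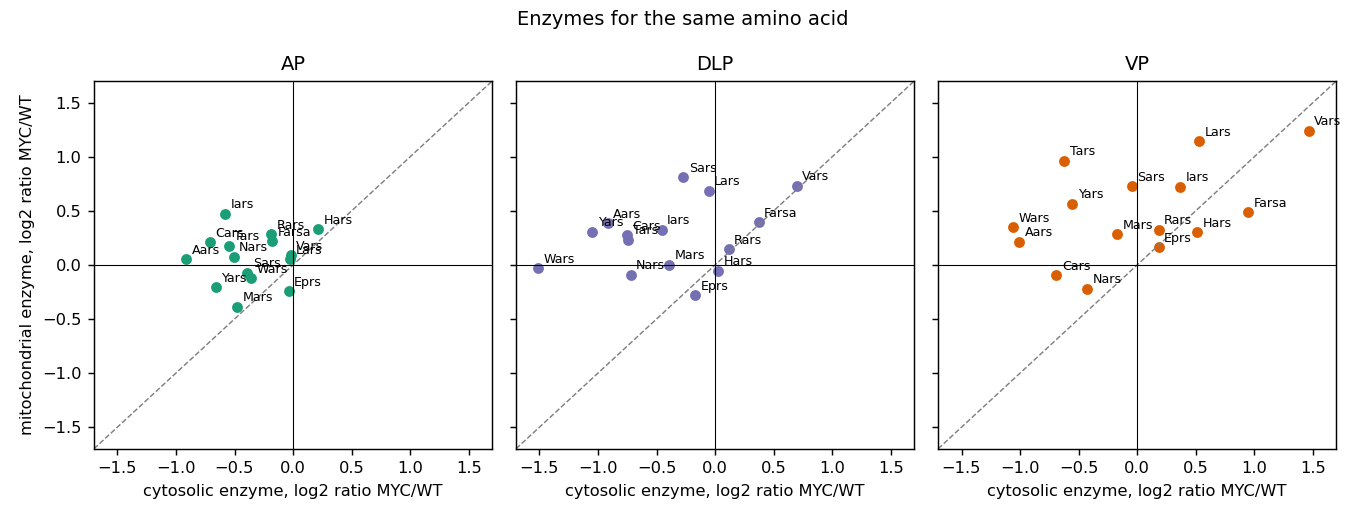
log2 ratio of MYC against WT for the cytosolic enzyme (x) and the mitochondrial enzyme (y) of the same amino acid in AP, DLP and VP, 15 pairs per panel, labelled by the cytosolic gene. Points above the dashed line of equal ratios number 14, 13 and 11.

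Among the partners of the synthetases, 1 of 3 complex scaffolds, 3 of 4 cytosolic carriers and 1 of 6 mitochondrial partners were 2-fold higher in MYC VP, beside 6.88% of all genes. The scaffold Aimp1 and the mitochondrial partner Tufm stood just inside, at 1.001 and 1.03. Kars, at 1.06 in the VP, ran from 0.79 to 1.30 over the scalings, so the counts that rest on Aimp1 and Tufm depend on the scaling. Of the scaffolds Aimp1 was at 19.9, 25.6 and 25.5 FPKM in WT AP, DLP and VP and at 25.3, 36.9 and 52.1 FPKM in MYC, higher in each lobe, with a ratio of 1.0 in the VP. Aimp2 and Eef1e1 had VP ratios of 0.56 and 0.84. The eEF1 subunits, which carry charged tRNA to the ribosome and recycle the carrier, were among the most abundant of these transcripts. Eef1a1, the carrier itself, had 3965 FPKM in the WT and 11063 FPKM in the MYC library of the VP (1.48). There Eef1b2, an exchange factor of the carrier, had 146 against 576 FPKM (1.97), and Eef1g 357 against 1175 FPKM (1.72). On the scale as deposited Eef1b2 alone of these reached 2-fold in the DLP, at 1.04, and in the AP none did. The fourth subunit compared, Eef1d, stood at 0.51 in the VP, and Eef1a2 was below the filter.

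Of 6 mitochondrial partners, 6 were above 0 in the AP, 4 in the DLP and 5 in the VP, beside 66.4%, 53.5% and 53.2% of all genes. Tufm, the mitochondrial carrier of charged tRNA, was at 14.3, 21.3 and 19.8 FPKM in WT and at 19.0, 29.99 and 41.5 FPKM in MYC. It was higher in each lobe and, on the scale as deposited, 2-fold higher in the VP at 1.03. The other 5, Tsfm, Mtfmt, Qrsl1, Gatb and Gatc, lay between -0.01 and 0.54 in the VP. The 7 genes of tRNA maturation, export and proofreading held none at 2-fold in any lobe, beside 18.7% of all genes. Their medians were 0.24, -0.01 and 0.40, beside 0.13, 0.03 and 0.04 for all genes.

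The other genes known as ATF4 targets were read beside the synthetases. The 24 genes, all compared, had medians of -0.42 in the AP, -0.25 in the DLP and -0.17 in the VP, and 19, 16 and 16 of them were below 0, beside 33.3%, 46.2% and 46.4% of all genes. At least 2-fold lower were 3, 4 and 5 of 24, beside 0.599%, 3.39% and 5.95%, and 0, 1 and 2 were 2-fold higher, beside 2.05%, 6.46% and 6.88%. Atf5, a transcription factor of the same family, was at 56.9, 32.6 and 24.3 FPKM in WT AP, DLP and VP and at 36.0, 15.5 and 8.81 FPKM in MYC, with ratios of -0.65, -1.02 and -1.37. Slc7a5, the transporter of large neutral amino acids, was at 51.6, 56.2 and 32.5 FPKM in WT and at 27.1, 19.1 and 13.0 FPKM in MYC, with ratios of -0.90, -1.51 and -1.26. Both were lower in each MYC lobe.

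Trib3, a pseudokinase that restrains the response, had -1.26, -0.71 and -1.16. Ddit3, the stress factor CHOP, fell in the VP (-1.28), from 238 to 97.3 FPKM, with 0.43 in the DLP and 0.00 in the AP. Against the list's direction Ddit4, an inhibitor of mTORC1, was 2-fold higher in MYC DLP (1.09) and MYC VP (1.08), and Shmt2, the mitochondrial serine hydroxymethyltransferase, in MYC VP (1.07). Both were named after their values were seen. Atf4 itself, which is controlled largely by translation, was at 586.5, 506.5 and 651.5 FPKM in WT and at 453.0, 405.7 and 411.1 FPKM in MYC, with ratios of -0.37, -0.32 and -0.66. The stress gene Atf3 was at 683 FPKM or above in each of the 6 libraries.

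The low Wars levels in MYC were not shared by the other interferon-inducible genes examined. Of 11 such genes, 10 were above 0 in the AP, 11 in the DLP and 11 in the VP, with medians of 0.68, 1.35 and 1.01, and 3, 9 and 6 of them were 2-fold higher, beside 2.05%, 6.46% and 6.88% of all genes. The hematopoietic markers moved with them in the DLP and VP, where 6 of 6 were above 0 in each, while 3 of 6 were above 0 in the AP.

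**Figure D5:**
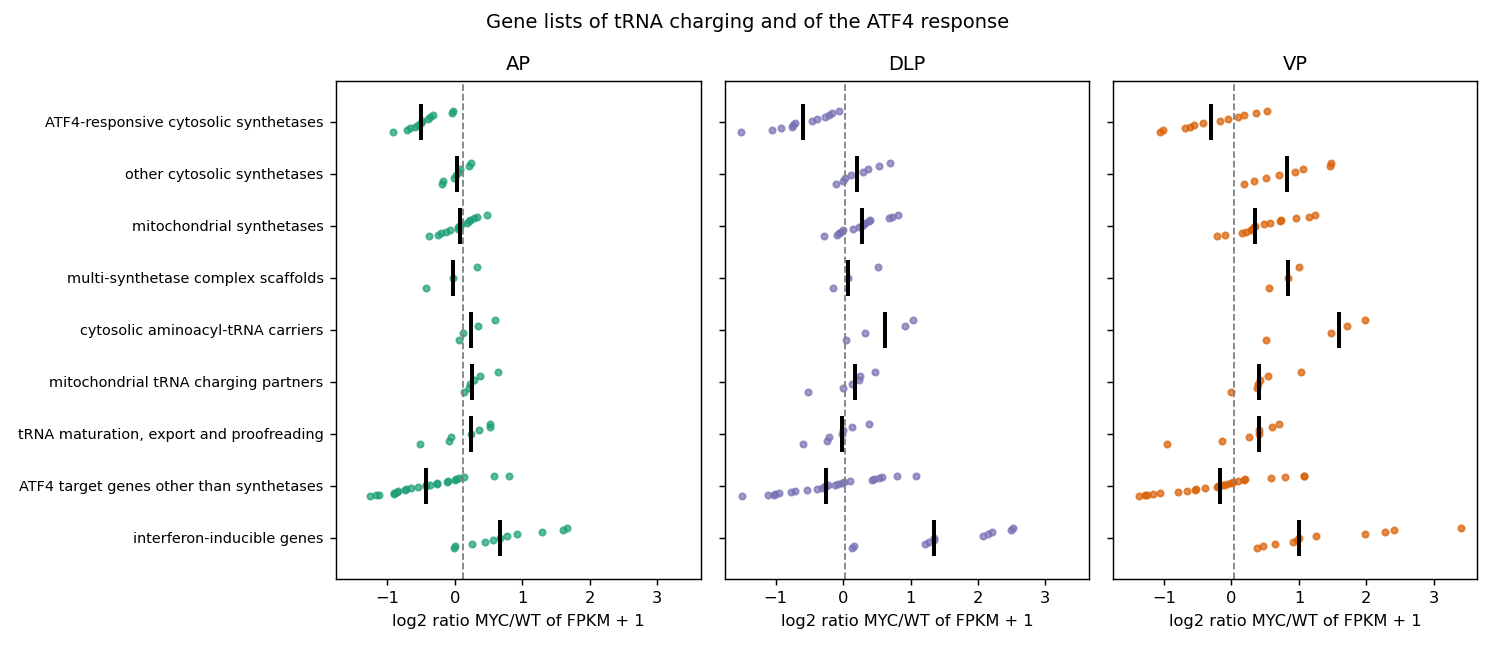
log2 ratio of MYC against WT for the genes of each list that passed the filter, by lobe (1 point per gene, bar at the list's median, dashed line at the median of all genes compared). In the VP the medians run from -0.30 for the ATF4-responsive synthetases and -0.17 for the other ATF4 targets to 1.60 for the cytosolic carriers.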

How the data were processed

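Dissociated prostate lobes were sequenced as single-end 75-base reads. Mapping by the authors used STAR and quantification used Cufflinks, and the deposited values are FPKM per gene in 1 table for 6 libraries. The submitters' processing notes name mm10. Although the methods speak of read counts, the values are not whole numbers, so no count model was run. The file holds 0 columns of other samples. Groups came from the sample labels. Ratios were taken as log2(FPKM + 1), for the 12361 genes that averaged 1 FPKM or more across the 6 libraries. Depth was estimated from the steps of low values (under 0.3 FPKM) of genes with a single exon, with GENCODE M1 transcript lengths less 200 bases. The steps were clear in part, with 34.4 to 48.3% of these values within 0.03 of a whole read, so the depth is approximate. Exact binomial 95% intervals of estimated reads cover counting error alone. Gene positions and promoter windows are those of RefSeq for GRCm38.p6, matched by symbol, and not every matched sequence is reported here.

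No test was run, since the libraries of each genotype came from 1 mouse and animals were not replicated. Members were named where they reached 2-fold in a lobe, were among the 3 largest rises or falls of their group in a lobe, or had the highest or lowest mean. Others named are examples from counts, chosen after their values were seen. Members and lists were chosen with earlier results of these data known. Alternatives were 5 other scalings, a pseudocount of 0.1, no filter or a mean of at least 10 FPKM, a 1.5-fold threshold, and leaving out Gars and Kars. Scripts used Python 3.11.15, numpy 2.4.6, pandas 2.3.3 and scipy 1.17.1, and were tested on simulated data.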

Additional observations from a re-analysis of the deposited data

Results flagged for a closer look

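Synthetases, their partners, ATF4 targets and interferon-inducible genes were looked at again where the log2 ratios of MYC to WT in 2 lobes differed by at least 1 and had opposite signs under each of the scalings tried. Marker genes of other cell types were not screened this way. With 1 library per group the difference between lobes was not tested for any of them. Among the synthetases Farsa met both conditions, whose log2 ratio was -0.18 in the AP and 0.95 in the VP, a difference of 1.12. The complex scaffold Eef1e1 went from -0.43 in the AP to 0.84 in the VP, a difference of 1.27.

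The remaining genes that met them were ATF4 targets. Asns, which makes asparagine, stood at -1.12 in the AP and -0.95 in the DLP but at 0.58 in the VP, differences of 1.7 and 1.53. Its levels were 53.8, 31.5 and 30.8 FPKM in WT AP, DLP and VP and 24.2, 15.7 and 46.5 FPKM in MYC. Shmt2 stood at -0.42 in the AP and 1.07 in the VP, a difference of 1.49. Ddit3 went the other way, from 0.43 in the DLP to -1.28 in the VP, a difference of -1.71. Nupr1, a small stress-induced chromatin protein, stood at 0.81 in the AP, 0.79 in the DLP and -0.53 in the VP, differences of -1.34 and -1.33, and its level was far higher in the VP of both genotypes, at 2985 FPKM in WT and 2064 in MYC.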

How the results depend on the processing

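No paired analysis was possible because each lobe and genotype has 1 library, and for the same reason no replicate could be left out. With a 1.5-fold threshold 4 synthetase genes were higher in MYC DLP (0 at 2-fold), 10 in MYC VP (5), and 3, 6 and 4 were lower in AP, DLP and VP (0, 2 and 2). The 5 higher in VP became 3 with equal sums of FPKM, with or without the 20 highest genes, and 3 at a mean of at least 10 FPKM, which no mitochondrial gene passes. The 2 lower in VP became 0 with Krt8 and Krt18 set equal, and 1 gene was 2-fold lower in AP under median-of-ratios factors and under the trimmed mean. Cytosolic genes above 0 in AP (5) numbered 8 with equal keratins and 2 under median of ratios and trimmed mean. In DLP (7) they numbered 4 with equal keratins and 4 with equal sums without the 20 highest genes. Mitochondrial genes above 0 in AP (10) numbered 6 under median of ratios and trimmed mean. Relative to the median of all genes, which is 0 without a filter, the AP medians moved without a filter from -0.62 to -0.49 (ATF4-responsive), -0.38 to -0.25 (cytosolic) and -0.09 to 0.036 (other cytosolic). Between WT lobes the cytosolic median moved from 0.02 to -0.25 (VP/AP, equal keratins) and from 0.12 to -0.11 (VP/DLP, equal keratins) or -0.017 (no filter), so the sign of these WT medians and of the other cytosolic AP median was not kept. Cytosolic genes highest in WT AP (5) numbered 9 with equal keratins and 11 with equal sums, in DLP (6) 11, 2, 3 and 1 with equal keratins, equal sums, median of ratios and trimmed mean, and in VP (9) 0 with equal keratins and 15 with the trimmed mean. Mitochondrial genes highest in WT AP (2) numbered 4 with equal keratins and 5 with equal sums, in DLP (8) 4 with equal sums, 5 without the 20 highest genes and 2 under median of ratios and trimmed mean, and in VP (5) 0 with equal keratins and 11 under the others named last. Setting the keratins equal moved the median of all genes to 0.28 in AP, -0.17 in DLP and 0.23 in VP. Leaving MYC AP out of the filter, chosen after seeing the data, kept each of the 24 summaries recomputed within 1.5 times for counts and within the counting error for medians, as leaving out Gars and Kars did for 9. The cause of these moves was not tested. Ratios of genes near 1 FPKM, such as Ears2 and Nars2, are limited by depth.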
